A study of Rattus norvegicus with 16 samples.

Results

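The genes described here make, take up, export and store cholesterol. They were listed by name: 18 enzymes of the synthesis pathway from acetyl-CoA to cholesterol, 4 genes of the SREBP system that controls those enzymes, 8 genes of cholesterol export with the LXR receptors that control them, and 2 genes that esterify or oxidise cholesterol. A member was taken from the arrays where the accession of a probe belonged to the listed rat gene. By this rule 30 of the 32 genes had a probe, and all 30 were among the 20471 genes tested. No probe was matched to Srebf1 or Cyp46a1, which were not analysed here. Each of the 30 was well above background on all 16 arrays, so no member entered the tests through 1 group alone.

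The RNA came from rat brain, from rats 8 weeks old, and was hybridised to Agilent arrays of 1 colour, 1 array per sample. Of the 16 samples, 5 were labelled normal controls without MCAo. MCAo, middle cerebral artery occlusion, blocks a main artery of the brain and is a model of ischaemic stroke. Another 5 samples were from MCAo rats given saline, and 6 were from MCAo rats given 1000000 cells by intravenous infusion (IV-hUMSC, an abbreviation commonly used for human umbilical cord mesenchymal stem cells). Tissue was taken 72 hours after the occlusion. The labels name no strain, sex, hemisphere or brain region, no time of infusion and no sham operation, so surgery and ischaemia cannot be told apart against the controls, and the saline group is the control for the infusion. They do not say that each sample is a separate animal, and p-values then measure only the spread between these samples. The RNA protocol in the labels names a blood RNA kit with globin removal although the tissue is given as brain. Neuronal markers (Snap25, Syt1, Map2 and others) were measured well above background on all 16 arrays for 11 of 11 matched genes.

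Cholesterol does not cross the blood-brain barrier in useful amounts, and the brain makes its own. Cells build it from acetyl-CoA by way of mevalonate, farnesyl diphosphate, squalene and lanosterol, and the genes of that pathway are switched on together by SREBP transcription factors when cholesterol in the endoplasmic reticulum is low. When cholesterol or its oxidised forms are plentiful, SREBP is held back and the LXR receptors switch on genes that move cholesterol out of the cell onto lipoproteins. In the brain the lipoprotein carrying most of it contains apolipoprotein E, made mainly by glia, and myelin made by oligodendrocytes is the largest store.

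Levels below are log2 signals of a probe relative to the 75th percentile of its array, so that 0 is that percentile. A level belongs to its probe and is not compared between genes. Changes are differences of group means on the same log2 scale with the standard error (SE) of the limma model, and a gene is said to have risen or fallen where its p-value, adjusted by Benjamini-Hochberg over all 20471 genes of a comparison, was under 0.05. The saline minus control and hUMSC minus control differences share the controls, and hUMSC minus saline shares the saline arrays, so the 3 differences of a gene are not independent of each other. In bulk tissue, fewer cells of a type and less RNA per cell cannot be told apart.

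In occluded brain given saline, synthesis enzymes were lower than in control brain, while only 2 of 8 export genes were called higher. Of the 18 enzymes, 9 fell and none rose, where 13.0% of all genes tested fell and 14.3% rose (limma, adjusted p). The median change of the 18 was -0.31, beside -0.04 over all genes. The 9 were Hmgcs1, Mvk, Lss, Cyp51, Msmo1, Nsdhl, Hsd17b7, Sc5d and Dhcr7. Among the 3 measured SREBP genes Srebf2 and Insig1 fell, with a median of -0.40 for the 3. Of the 8 export genes Abca1 and Nr1h3 rose and none fell, where 14.3% of all genes rose. That count was not tested against the share of all genes. The median of the 8 was 0.27, and Soat1, which stores cholesterol as ester, rose as well. In all, 3 members rose, 11 fell and 16 did not pass the threshold, where 27.3% of all genes passed in either direction. With each array centred on its median 5 more enzymes passed (Pmvk, Mvd, Idi1, Fdps and Sqle), as did Scap and Nr1h2, all lower. Among all genes 52.4% of the calls were rises, against 32.7% when each array was centred on its median.

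In brain of the infused group most enzymes were lower than in control brain and most export genes higher. Of the 18 enzymes, 16 were lower in hUMSC than in control brain and 1, Ebp, was higher, where 37.3% of all genes tested were lower and 24.7% higher. The median of the 18 was -0.44, beside -0.13 over all genes. All 3 SREBP genes fell (median -0.62), 6 of 8 export genes rose (median 0.52) and Soat1 rose. Fdft1, Abcg1 and Nr1h2 were the 3 of 30 members not called, where 62.0% of all genes were called in either direction. Nr1h2 was called lower with median centring (-0.15, adjusted p = 0.0461), and Fdft1 was called lower with slide as a block (-0.27, adjusted p = 0.0131).

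Set directly against saline, few of these genes passed in the infused group. Only Scarb1 and Nr1h3 were called among the 30 members, both higher, where 4.86% of all genes tested were higher, 7.96% lower and 12.8% either. None of the 18 enzymes passed the threshold in limma. An unadjusted p under 0.05 was seen for 3, all lower, beside 4477 of all 20471 genes lower at that level. The median of the 18 enzymes was -0.14, beside -0.07 over all genes. The median of the export genes was 0.24. Each call was lost without saline replicate 1 (Nr1h3 0.52, adjusted p = 0.144, and Scarb1 0.30, adjusted p = 0.0901) or without saline replicate 5 (0.44, adjusted p = 0.130, and 0.30, adjusted p = 0.0816). The model shares 1 estimate of spread among the 3 groups, but the SDs differed. They were 0.125 in control and 0.523 in saline for Nr1h3, and 0.048 and 0.199 for Scarb1. With only the 2 groups compared both calls were lost (limma, adjusted p = 0.123 for Nr1h3 and 0.0982 for Scarb1). Array weights also lost both (adjusted p = 0.175 and 0.0970). Of the calls among all genes 37.9% were rises, against 50.8% with median centring.

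**Figure D1:**
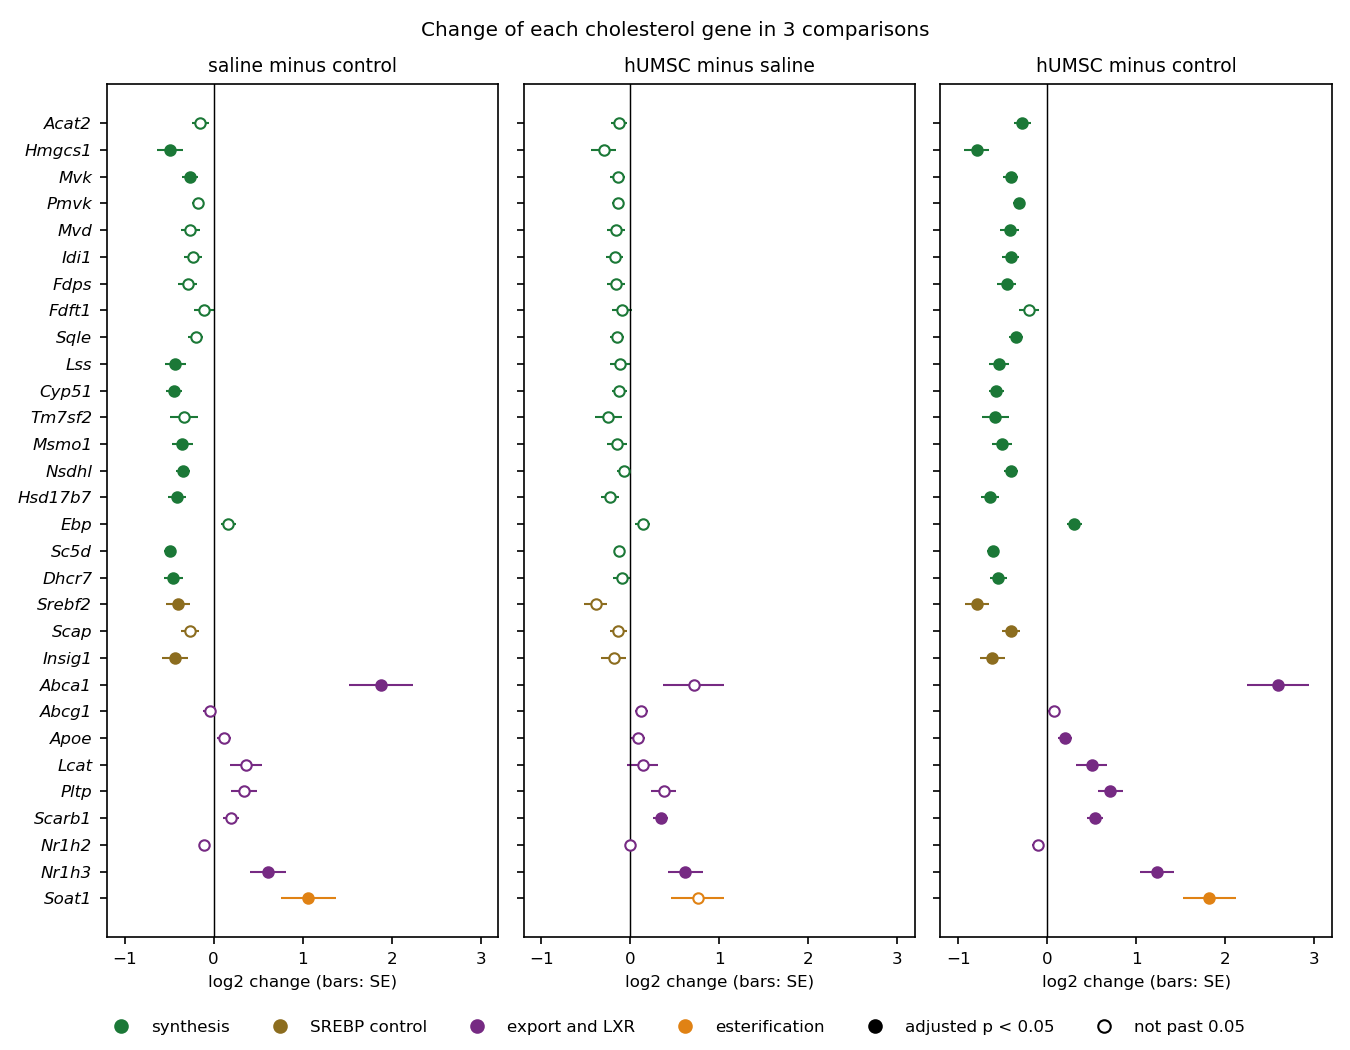
Log2 change of each of the 30 measured members in saline minus control, hUMSC minus saline and hUMSC minus control, with bars of 1 SE from the limma model. Filled points passed an adjusted p of 0.05. Whether filled or open, the synthesis enzymes lie left of 0 except Ebp. Points of Abca1, Apoe, Lcat, Pltp, Scarb1, Nr1h3 and Soat1, filled or open, lie right of 0 in all 3 panels.

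The first steps of synthesis turn acetyl-CoA into farnesyl diphosphate. Hmgcs1 encodes the enzyme that makes HMG-CoA, an early intermediate of the pathway. Its level in controls 1 to 5 was 4.94, 4.90, 4.82, 4.91 and 4.92. In saline arrays 1 to 5 it was 4.77, 4.36, 3.91, 4.13 and 4.86, and in hUMSC arrays the lowest, median and highest values were 3.94, 4.09 and 4.33. Saline 5 lay among the controls and saline 1 just under them, while every hUMSC array was below every control. The change was -0.49 ± 0.15 in saline against control (adjusted p = 0.0235), -0.30 ± 0.14 in hUMSC against saline (adjusted p = 0.132) and -0.79 ± 0.14 in hUMSC against control (adjusted p = 0.000226), so that the mean in hUMSC was 0.577 of the control level. Its call against control in saline was lost without saline 2, 3 or 4, with adjusted p of 0.0548, 0.0591 and 0.0662.

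Mevalonate is phosphorylated by mevalonate kinase, the product of Mvk. Mvk stood at -0.62, -0.56, -0.67, -0.63 and -0.57 in controls 1 to 5, at -0.59, -1.06, -1.03, -1.04 and -0.69 in saline 1 to 5, and at -1.11, -1.05 and -0.87 for the lowest, median and highest hUMSC array. In saline, replicates 1 and 5 were within or close to the control range, and the other 3 saline arrays were within the hUMSC range. Mvk fell by 0.27 in saline (SE 0.09, adjusted p = 0.0398) and by 0.41 in hUMSC (SE 0.09, adjusted p = 0.000853). Between hUMSC and saline the difference was -0.14 ± 0.09 (adjusted p = 0.229). The call in saline was lost in 8 of the 10 fits that left out 1 array, with an adjusted p of up to 0.107 without saline 2.

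None of the other 6 enzymes before squalene passed in saline, and 5 of the 6 fell in hUMSC against control. Acat2, a thiolase that joins acetyl-CoA units, was -0.15 from control in saline and -0.28 in hUMSC. For Pmvk, Mvd and Idi1, which carry mevalonate on to the isoprenoid units, the saline differences were -0.17, -0.26 and -0.23, with adjusted p of 0.0603, 0.0799 and 0.0864. The same 3 genes were -0.32, -0.42 and -0.41 in hUMSC against control, and all 3 passed the threshold there. Fdps, which makes farnesyl diphosphate, was -0.29 ± 0.11 in saline (adjusted p = 0.0594) and -0.46 ± 0.11 in hUMSC (adjusted p = 0.00166). A second probe of Fdps gave -0.24 and -0.42. Fdft1, the squalene synthase, was the synthesis enzyme that passed in no comparison, at -0.11 ± 0.12 in saline and -0.20 ± 0.11 in hUMSC (adjusted p = 0.130).

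From squalene onward the pathway closes the sterol rings and trims lanosterol to cholesterol. Grouped this way after the values were seen, and so given without a test, 7 of the 10 enzymes from squalene onward fell in saline against 2 of the 8 before it, where 13.0% of all genes fell. The contrast in counts depended on the setting: with median scaling 8 of 10 and 6 of 8 fell, and with array weights 9 of 10 and 6 of 8. The median saline changes were -0.38 and -0.25. In hUMSC against control, where 37.3% of all genes fell, 9 of 10 were lower and 1 higher, with a median of -0.55, and 7 of the 8 earlier enzymes were lower, with a median of -0.41.

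Sc5d, a desaturase acting near the end of the pathway, had the smallest p of the 18 enzymes in both comparisons with control. It read 0.54, 0.31, 0.52, 0.32 and 0.39 in controls 1 to 5 and 0.00, -0.06, -0.17, -0.13 and -0.03 in saline 1 to 5. In hUMSC the lowest, median and highest arrays were at -0.29, -0.24 and -0.03. All 5 saline and all 6 hUMSC arrays lay below all 5 controls, saline 1 and 5 included, whereas saline and hUMSC overlapped. Sc5d fell by 0.49 in saline (SE 0.07, adjusted p = 0.000434) and by 0.62 in hUMSC (SE 0.07, adjusted p = 6.43e-06), and hUMSC minus saline was -0.12 ± 0.07 (adjusted p = 0.178). The hUMSC mean was 0.653 of the control level.

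Cyp51 encodes the demethylase that takes the first methyl group from lanosterol. Controls 1 to 5 gave 1.55, 1.58, 1.49, 1.38 and 1.37, saline 1 to 5 gave 1.27, 1.004, 0.76, 0.88 and 1.23, and hUMSC ran over 0.78, 0.89 and 0.999 (lowest, median, highest). The saline arrays nearest the controls, 1 and 5, did not reach them, and no hUMSC array reached saline 1 or 5. The changes from control were -0.45 ± 0.09 in saline (adjusted p = 0.00413) and -0.57 ± 0.09 in hUMSC (adjusted p = 8.06e-05). From saline to hUMSC the difference was -0.13 ± 0.09 (adjusted p = 0.294).

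Lss, the cyclase that makes lanosterol, had levels of 0.52, 0.32, 0.21, 0.76 and 0.35 in controls 1 to 5 and -0.04, -0.04, 0.37, -0.24 and -0.04 in saline 1 to 5. Its hUMSC levels were -0.31, -0.11 and 0.07. Here saline 3 was the one saline array inside the control range, and the other 4 saline arrays lay within the hUMSC range. Lss fell by 0.43 in saline (SE 0.12, adjusted p = 0.0158) and by 0.55 in hUMSC (SE 0.11, adjusted p = 0.000685), with -0.12 ± 0.11 between them (adjusted p = 0.447).

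A set of 3 enzymes, Msmo1, Nsdhl and Hsd17b7, removes the paired methyl groups that remain. Msmo1, the oxidase, was at 4.79, 4.77, 4.67, 4.67 and 4.71 in controls 1 to 5, 4.63, 4.30, 4.004, 4.27 and 4.65 in saline 1 to 5 and 3.99, 4.19 and 4.45 in hUMSC (lowest, median, highest). Both occluded groups lay below all controls, saline 1 and 5 by a small margin. It fell by 0.35 in saline (SE 0.12, adjusted p = 0.0393) and by 0.51 in hUMSC (SE 0.11, adjusted p = 0.00132), and the saline call was lost in 8 of 10 fits without 1 array (adjusted p up to 0.104 without saline 3). For Nsdhl, the decarboxylating dehydrogenase, the controls read -0.54, -0.42, -0.58, -0.52 and -0.57, saline 1 to 5 read -0.65, -0.87, -1.08, -1.003 and -0.76 and hUMSC read -1.10, -0.93 and -0.78. Again no occluded array reached the controls. The changes were -0.34 ± 0.08 in saline (adjusted p = 0.00920) and -0.41 ± 0.08 in hUMSC (adjusted p = 0.000436).

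Hsd17b7, the ketoreductase of the same set, read -1.25, -1.30, -1.44, -1.36 and -1.32 in controls 1 to 5, -1.60, -1.81, -2.01, -1.93 and -1.38 in saline 1 to 5 and -2.10, -2.001 and -1.76 in hUMSC. Saline 5 was inside the control range, saline 1 below it, and the remaining 3 saline arrays within the hUMSC range. Its changes were -0.41 ± 0.11 in saline (adjusted p = 0.0127), -0.23 ± 0.10 from saline to hUMSC (adjusted p = 0.115) and -0.64 ± 0.10 in hUMSC against control (adjusted p = 0.000102). The last enzyme listed, Dhcr7, reduces the final precursor of one branch to cholesterol. Dhcr7 was at 0.80, 0.86, 0.70, 0.74 and 0.73 in controls, 0.45, 0.37, 0.04, 0.29 and 0.42 in saline 1 to 5 and -0.08, 0.22 and 0.50 in hUMSC. Each occluded array was below each control, while saline and hUMSC covered much the same range. Dhcr7 fell by 0.45 in saline (SE 0.11, adjusted p = 0.00773) and by 0.55 in hUMSC (SE 0.10, adjusted p = 0.000310).

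Sqle, the squalene epoxidase, and Tm7sf2, a sterol reductase, were lower in hUMSC than in control, at -0.35 ± 0.08 (adjusted p = 0.00156) and -0.58 ± 0.15 (adjusted p = 0.00370). In saline they were -0.20 ± 0.08 and -0.34 ± 0.16, with adjusted p of 0.0833 and 0.122. All saline arrays of Tm7sf2 lay below all controls although it did not pass the threshold, and saline 3, at -1.36, lay far below the others.

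Ebp, the isomerase that acts just before Sc5d, went the other way and was singled out after its values were seen. Its levels were 1.18, 1.19, 1.13, 1.17 and 1.18 in controls 1 to 5, 1.30, 1.59, 1.29, 1.29 and 1.22 in saline 1 to 5 and 1.30, 1.41 and 1.74 in hUMSC. Every occluded array was above every control, and saline 2 stood apart from the other saline arrays. The change was 0.17 ± 0.09 in saline (adjusted p = 0.165) and 0.30 ± 0.08 in hUMSC (adjusted p = 0.00564), where Ebp rose to 1.24 times the control level. Within slide 2 the hUMSC change was 0.19 (adjusted p = 0.102).

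Group separation followed the same lines. In saline against control, 6 of the 18 enzymes had all saline arrays below all controls, namely Cyp51, Tm7sf2, Msmo1, Nsdhl, Sc5d and Dhcr7, where 8.55% of all genes did. Ebp was above all controls, as were 9.85% of all genes. In hUMSC against control 15 of 18 enzymes lay below all controls, beside 26.9% of all genes, and 1 above, beside 19.2%. Abca1 was the export gene with all saline arrays above all controls, and Abca1, Pltp, Scarb1 and Nr1h3 were those with all hUMSC arrays above them, as were those of Soat1. In hUMSC against saline no member was free of overlap, beside 1.24% of all genes higher and 2.95% lower.

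**Figure D2:**
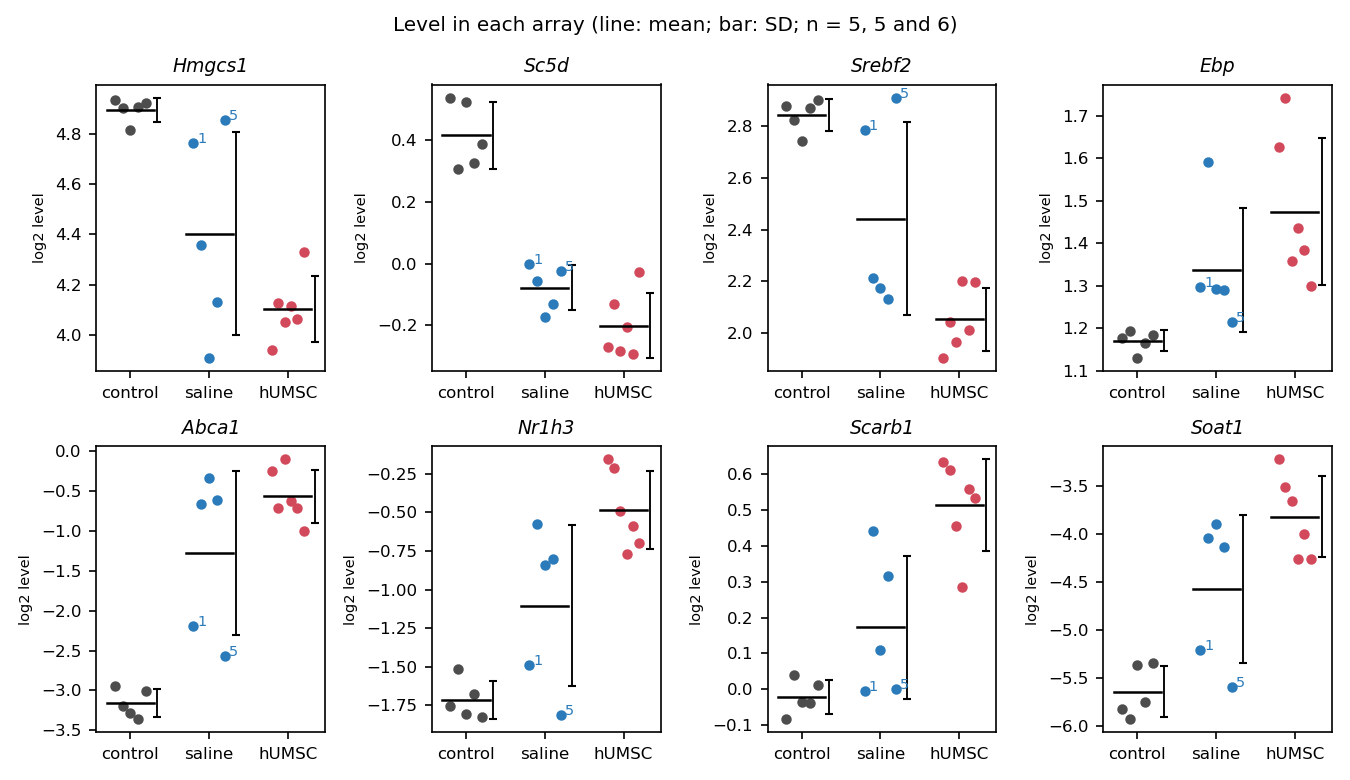
Log2 level relative to the 75th percentile of the array for 8 genes in each of 5 control, 5 saline and 6 hUMSC arrays, with the group mean (line) and SD (bar). Saline replicates 1 and 5 are numbered: they lie near the controls for Hmgcs1, Srebf2, Nr1h3, Scarb1 and Soat1, and below all controls for Sc5d.

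The SREBP system senses cholesterol. Srebf2 encodes the transcription factor that drives the synthesis genes and is itself one of its own targets. In controls 1 to 5 Srebf2 was at 2.88, 2.83, 2.74, 2.87 and 2.90, in saline 1 to 5 at 2.78, 2.21, 2.17, 2.13 and 2.91, and in hUMSC at 1.90, 2.03 and 2.20 (lowest, median, highest). Both saline 1 and saline 5 were within or just above the control range, whereas saline 2, 3 and 4 were at or near hUMSC levels. Srebf2 fell by 0.40 in saline (SE 0.14, adjusted p = 0.0410) and by 0.79 in hUMSC against control (SE 0.13, adjusted p = 0.000139), to 0.579 of the control level. The difference from saline to hUMSC was -0.39 ± 0.13 and just missed the threshold (adjusted p = 0.0585). Its saline call was lost in 8 of 10 fits without 1 array, with adjusted p of 0.0577 to 0.110, and kept without saline 1 or without saline 5.

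Insig1 encodes a membrane protein that keeps SREBP in the endoplasmic reticulum, and its gene is an SREBP target as well. It read 0.93, 1.05, 0.68, 0.93 and 1.03 in controls 1 to 5, 0.70, 0.37, -0.04, 0.43 and 1.01 in saline 1 to 5 and 0.16, 0.30 and 0.40 in hUMSC. Saline 5 matched the controls, saline 1 was at their lower edge and saline 3 was lower than any hUMSC array. Insig1 fell by 0.43 in saline (SE 0.15, adjusted p = 0.0399, lost in 7 of 10 fits without 1 array, up to 0.0960 without saline 3) and by 0.62 in hUMSC (SE 0.14, adjusted p = 0.00140). Scap, the escort protein of SREBP, was -0.27 ± 0.10 in saline (adjusted p = 0.0617) and fell by 0.41 in hUMSC (SE 0.10, adjusted p = 0.00217). None of the 3 SREBP genes passed between hUMSC and saline.

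Export begins at the membrane. Abca1 encodes the pump that loads cholesterol and phospholipid onto lipid-poor apolipoproteins and is a classical LXR target. Its level was -2.95, -3.20, -3.28, -3.36 and -3.001 in controls 1 to 5, -2.19, -0.66, -0.34, -0.61 and -2.57 in saline 1 to 5 and -0.997, -0.67 and -0.10 in hUMSC (lowest, median, highest). All saline and hUMSC arrays were above all controls, with saline 1 and 5 the lowest of them and saline 2, 3 and 4 among the hUMSC values. Abca1 rose by 1.88 ± 0.36 in saline (adjusted p = 0.00295) and by 2.59 ± 0.35 in hUMSC (adjusted p = 3.10e-05), that is 3.69-fold and 6.03-fold. Between hUMSC and saline the difference was 0.71 ± 0.35 (adjusted p = 0.147). In both comparisons with control these were the largest changes of any member.

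Nr1h3 encodes LXR alpha, the receptor for oxidised cholesterol. In controls 1 to 5 it was at -1.76, -1.52, -1.81, -1.68 and -1.83, in saline 1 to 5 at -1.49, -0.58, -0.84, -0.80 and -1.81 and in hUMSC at -0.77, -0.54 and -0.15. Saline 1 lay just above the controls and saline 5 among them, and 1 of the 5 saline arrays was within the hUMSC range. The rise was 0.61 ± 0.20 in saline (adjusted p = 0.0360), 0.62 ± 0.19 from saline to hUMSC (adjusted p = 0.0480) and 1.23 ± 0.19 in hUMSC against control (adjusted p = 9.53e-05), or 2.35-fold. Against saline the call was lost in 6 of 11 fits without 1 array, those without saline 1 or 5 and those without hUMSC 5, 6, 7 or 9 (adjusted p of 0.104, 0.0969, 0.0835 and 0.0609 for the latter). Without saline 1 and 5 together the difference was 0.25 (adjusted p = 0.444). With only the 2 groups compared the call against saline was lost as well (adjusted p = 0.123). The call of saline against control was lost in 7 of 10 fits without 1 array (adjusted p up to 0.101 without saline 2). Nr1h2, the other LXR, showed -0.11 ± 0.06 in saline and -0.11 ± 0.06 in hUMSC, and was not called (adjusted p = 0.229 and 0.144).

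Scarb1 encodes a receptor that exchanges cholesterol with high-density lipoprotein. Its brighter probe read -0.08, 0.04, -0.04, -0.04 and 0.01 in controls 1 to 5, -0.01, 0.44, 0.11, 0.32 and 0.00 in saline 1 to 5 and 0.28, 0.55 and 0.64 in hUMSC. Among the saline arrays, 1 and 5 lay with the controls, while 2 and 4 were within the hUMSC range, and all hUMSC arrays were above all controls. The change was 0.19 ± 0.09 in saline (adjusted p = 0.118), 0.34 ± 0.09 from saline to hUMSC (adjusted p = 0.0280) and 0.54 ± 0.09 in hUMSC against control (adjusted p = 0.000114). The dimmer probe of Scarb1 gave larger rises of 0.86, 0.76 and 1.62, with p-values adjusted over all probes of 0.0137, 0.0360 and 3.05e-05, so the 2 probes disagree on the saline call. Against saline the call on the brighter probe was lost in 5 of 11 fits, those without saline 1 or 5 and those without hUMSC 5, 6 or 7 (adjusted p of 0.0628, 0.0592 and 0.0502 for the latter). With saline 1 and 5 both left out the difference was 0.22 (adjusted p = 0.290). The call against saline was also lost with only the 2 groups compared (adjusted p = 0.0982).

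Further export genes act on the lipoproteins themselves. Pltp, which transfers phospholipid between lipoproteins, was 0.34 ± 0.15 in saline (adjusted p = 0.0983) and 0.37 ± 0.14 from saline to hUMSC (adjusted p = 0.0810). It rose by 0.71 ± 0.14 in hUMSC against control (adjusted p = 0.000570). Apoe, the main apolipoprotein of the brain, rose by 0.20 in hUMSC (SE 0.07, adjusted p = 0.0282), and Lcat, which esterifies cholesterol on lipoproteins, by 0.50 (SE 0.17, adjusted p = 0.0208). The Apoe call was lost in 6 of 11 fits without 1 array (controls 3, 4 or 5, hUMSC 5, 6 or 10, adjusted p up to 0.0641), and the Lcat call without control 1 (0.41, adjusted p = 0.0623). Abcg1, a second export pump, was -0.04 ± 0.08 in saline, 0.12 ± 0.07 from saline to hUMSC and 0.08 ± 0.07 in hUMSC against control, and passed in none.

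Soat1 makes cholesteryl ester, the form held in lipid droplets. Its probe was dim, at -5.82, -5.93, -5.36, -5.74 and -5.35 in controls 1 to 5, -5.21, -4.04, -3.89, -4.14 and -5.59 in saline 1 to 5 and -4.27, -3.83 and -3.22 in hUMSC, yet well above background on each array. Saline 5 lay within the control range, saline 1 just above it, and saline 2, 3 and 4 with the hUMSC arrays. Soat1 rose by 1.07 ± 0.31 in saline (adjusted p = 0.0217) and by 1.82 ± 0.30 in hUMSC (adjusted p = 0.000127), or 3.53-fold, and hUMSC minus saline was 0.75 ± 0.30 (adjusted p = 0.0881). Without control 2, saline 2, saline 3 or saline 4 the saline call was lost, with adjusted p of 0.0506, 0.0633, 0.0632 and 0.0601.

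Promoter sequence was read for the enzymes and the export gene with the smallest p in hUMSC against control that have an entry, to set the genes that fell beside the gene that rose most. Sequences are the 250 bases before the start in RefSeq's rat assembly GRCr8, printed 5′ to 3′ on the strand of the gene. Capitals mark CCAAT, the box bound by NF-Y, a partner of SREBP, on either strand (ATTGG on the reverse), or DR4, the LXR repeat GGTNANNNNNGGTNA on either strand. Also searched on both strands was CACNCCAC, the core of a sterol response element.
Sc5d, chr8:51538278-51538527, minus strand: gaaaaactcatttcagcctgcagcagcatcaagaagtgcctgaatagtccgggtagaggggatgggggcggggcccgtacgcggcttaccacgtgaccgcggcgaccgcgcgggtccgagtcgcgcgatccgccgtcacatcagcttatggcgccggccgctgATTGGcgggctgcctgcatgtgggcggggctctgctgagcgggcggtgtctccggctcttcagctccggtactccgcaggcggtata
Cyp51, chr4:30991443-30991692, plus strand: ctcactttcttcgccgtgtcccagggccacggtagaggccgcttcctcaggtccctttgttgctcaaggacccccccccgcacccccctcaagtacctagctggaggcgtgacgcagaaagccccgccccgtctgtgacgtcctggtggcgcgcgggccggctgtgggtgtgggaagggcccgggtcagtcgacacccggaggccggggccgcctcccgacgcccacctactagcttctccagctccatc
Hsd17b7, chr13:84722755-84723004, minus strand: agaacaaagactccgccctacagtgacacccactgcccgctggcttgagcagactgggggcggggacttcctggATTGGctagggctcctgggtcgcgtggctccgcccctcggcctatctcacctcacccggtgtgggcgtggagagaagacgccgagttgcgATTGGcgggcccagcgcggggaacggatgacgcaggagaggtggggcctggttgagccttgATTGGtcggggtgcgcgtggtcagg
Abca1, chr5:72596474-72596723, minus strand: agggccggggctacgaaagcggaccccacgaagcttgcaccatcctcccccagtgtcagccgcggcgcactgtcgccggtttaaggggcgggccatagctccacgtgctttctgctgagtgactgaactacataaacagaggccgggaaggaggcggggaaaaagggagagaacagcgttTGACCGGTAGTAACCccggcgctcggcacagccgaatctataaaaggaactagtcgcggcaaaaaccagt

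Of the 32 genes 27 had a promoter in the table. A gene was counted if any of its promoters held the motif, while the shares of all promoters count each promoter singly. Genes with several promoters so had more chances of a match, and counts and shares are not like for like. CCAAT was present in 12 of 15 synthesis genes and 3 of 4 SREBP genes, beside 34.02% of all 33469 promoters. It was present in 2 of 6 export genes and in both the esterifying and the oxidising gene, Soat1, which rose, included. In the sequences shown, Sc5d has it 87 bases before the start and Hsd17b7 has it 176, 86 and 25 bases before the start, while Cyp51 has none of the 3 motifs in this window. Mvk, Nsdhl and Msmo1 hold 5, 5 and 3 copies. Ebp, the enzyme that rose, holds CCAAT 115 and 85 bases before its start. Fdps, which fell in hUMSC against control, holds it 130 and 85 bases before its start. CACNCCAC was found in 2 of 15 synthesis genes (Acat2 and Ebp), in Insig1 among the SREBP genes and in 4.89% of all promoters. Among the members DR4 was found in Abca1 alone, as TGACCGGTAGTAACC starting 70 bases before the start, beside 0.59% of all promoters. A match is a run of letters in a window and does not show that a factor bound there.

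The saline arrays were not alike in level, and the synthesis and export genes divided them in the same way. The mean of the 18 enzymes, relative to the control mean, was -0.14, -0.29, -0.52, -0.41 and -0.11 in saline 1 to 5, and ran from -0.53 through a median of -0.43 to -0.32 in hUMSC. The mean of the 8 export genes was 0.21, 0.73, 0.61, 0.51 and 0.04 in saline 1 to 5, and ran from 0.61 through 0.68 to 0.89 in hUMSC. Both means were thus nearest to control in saline 1 and 5 and near or within the hUMSC range in saline 2, 3 and 4. Saline 1 was nearer to the control mean than to the hUMSC mean for 15 of 18 enzymes, 3 of 3 SREBP genes and 6 of 8 export genes, and saline 5 for 14, 3 and 8. Leaving saline 1 and 5 out was chosen after these same values were seen. More calls against control and a smaller difference from hUMSC therefore follow from the choice and are no separate result. Without these arrays 15 enzymes fell and 4 export genes rose in saline against control, where 24.4% of all genes fell and 19.8% rose. Neither an enzyme nor an export gene was then called between hUMSC and saline in limma, and of all genes 18 fell and 5 rose (2694 at an unadjusted p under 0.05). The medians of hUMSC minus saline were then -0.02 for synthesis and 0.06 for export, beside -0.02 over all genes.

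**Figure D3:**
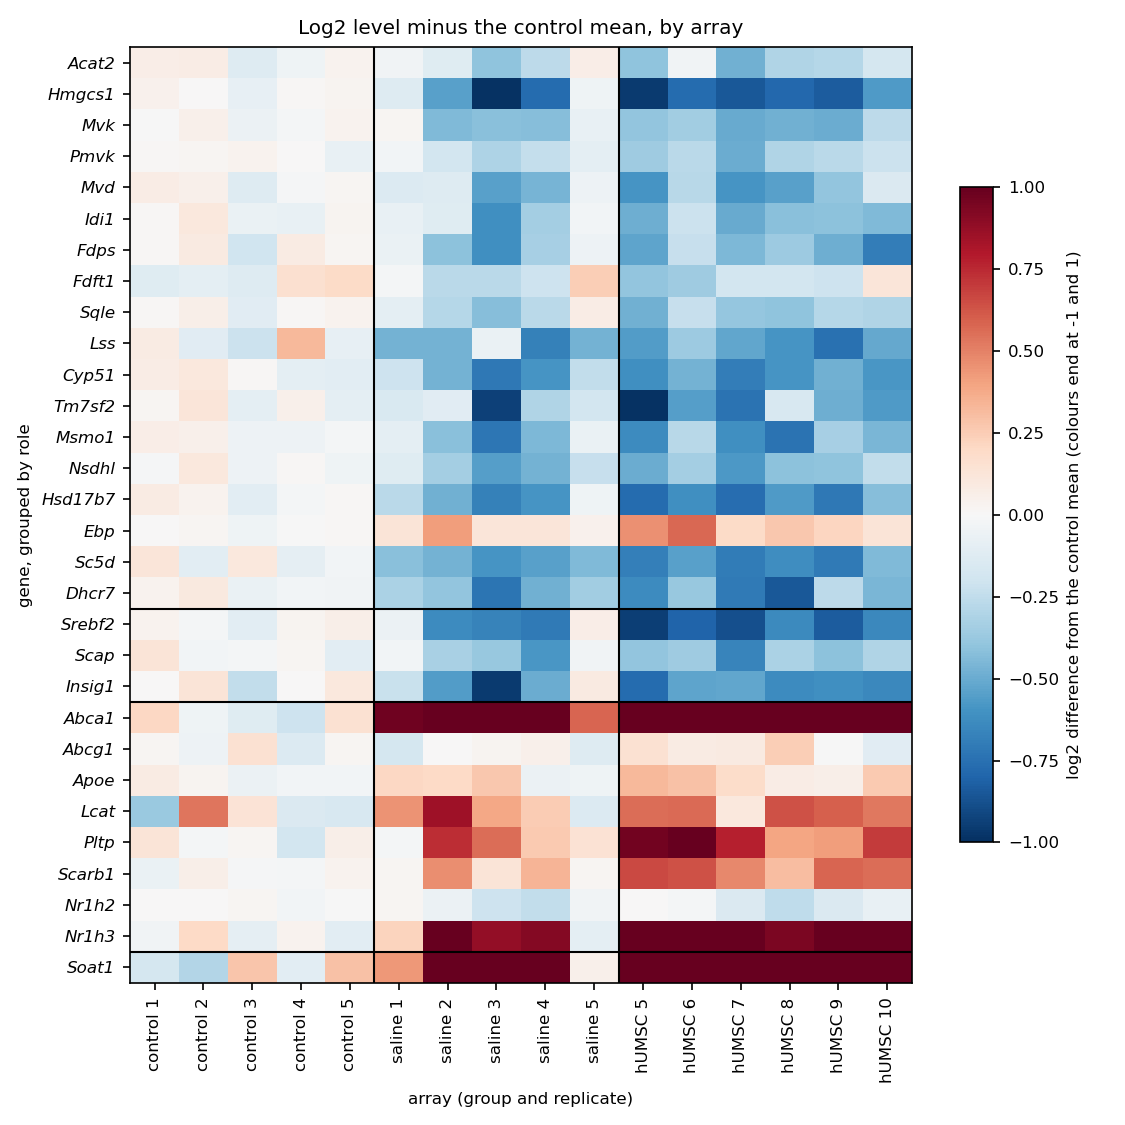
Difference of each member's log2 level from its control mean (colour, ending at -1 and 1) in each of the 16 arrays, with lines between roles and between groups. Saline 1 and 5 are paler than saline 2, 3 and 4 in most synthesis rows, and Ebp is the synthesis row with the opposite colour.

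Arrays lay on 2 slides, as the header barcodes give them, with 3 control, 3 saline and 2 hUMSC arrays on slide 1 and 2, 2 and 4 on slide 2. With slide as a block in the model 9 enzymes fell in saline and 17 in hUMSC against control, beside 15.7% and 40.9% of all genes. Within slide 1 the counts were 4 and 8, beside 4.75% and 29.9% of all genes, and within slide 2 they were 0 and 12, the latter beside 15.4%. The median changes of the enzymes within slides 1 and 2 were -0.31 and -0.25 in saline and -0.40 and -0.45 in hUMSC. For export genes the block gave 2 rises in saline and 6 in hUMSC, slide 1 gave 1 and 5, and slide 2 gave 0 and 5. Of all genes 16.8% and 26.1% rose with the block and 10.2% and 23.2% within slide 1, and 14.8% rose in hUMSC within slide 2. In slide 2 the comparison of saline with control called 1 gene of all 20471 (2455 at an unadjusted p under 0.05). The differences of hUMSC from saline were 0.79 and 0.67 for Nr1h3 within slides 1 and 2, and 0.44 and 0.30 for Scarb1, none past the threshold (adjusted p of 0.0829, 0.313, 0.0779 and 0.320). With the block both passed (0.70, adjusted p = 0.0178, and 0.36, adjusted p = 0.0147), and so did Srebf2 (-0.42, adjusted p = 0.0321), Pltp (0.44, adjusted p = 0.0230) and Soat1 (0.85, adjusted p = 0.0429).

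Markers of brain cell types also differed between the groups, and are read against the shares of all genes called (14.3% higher and 13.0% lower in saline, 24.7% and 37.3% in hUMSC against control, 4.86% and 7.96% between hUMSC and saline). Of 12 phagocyte markers (Cd68, Gpnmb, Trem2 and others) 10 rose in saline and 12 in hUMSC against control, and 4 rose in hUMSC against saline. On the control arrays their mean level lay between -0.76 and -0.46. The saline arrays spanned 0.51 to 2.87, with saline 5 lowest and saline 1 next, and the hUMSC arrays 2.61 to 3.65. Neuronal markers fell in 5 of 11 cases in saline, 10 of 11 in hUMSC and 4 of 11 between hUMSC and saline, with mean levels spanning 2.64 to 2.71 on control arrays, 2.13 to 2.63 on saline and 1.78 to 2.17 on hUMSC arrays. Oligodendrocyte markers (Mbp, Mog, Mag and others) fell in 4 of 12 cases in saline and 7 of 12 in hUMSC, with mean levels of 1.80 to 1.97, 1.25 to 1.83 and 1.51 to 1.72. Among 9 astrocyte markers 1 rose and 2 fell in saline, and 2 rose and 4 fell in hUMSC. Of 7 endothelial markers 1 rose and 1 fell in saline, and 5 rose and 1 fell in hUMSC against control. Between hUMSC and saline 3 endothelial markers rose, and no astrocyte or oligodendrocyte marker was called. Mean levels of the astrocyte list were 3.26 to 3.43, 3.05 to 3.40 and 3.06 to 3.29 in the same order of groups, and of the endothelial list -0.93 to -0.72, -1.08 to -0.72 and -0.84 to -0.27. All the markers tested were above background on all 16 arrays except 1 phagocyte marker. The saline arrays nearest to control were 1 and 5 for phagocyte, neuronal and astrocyte markers, as for the synthesis and export means. For oligodendrocyte markers saline 3 (-0.08) and 1 (-0.14) were nearest, and for endothelial markers saline 5 (0.02) and 3 (0.11). The part of these cell types in the changes of the cholesterol genes was not tested.

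**Figure D4:**
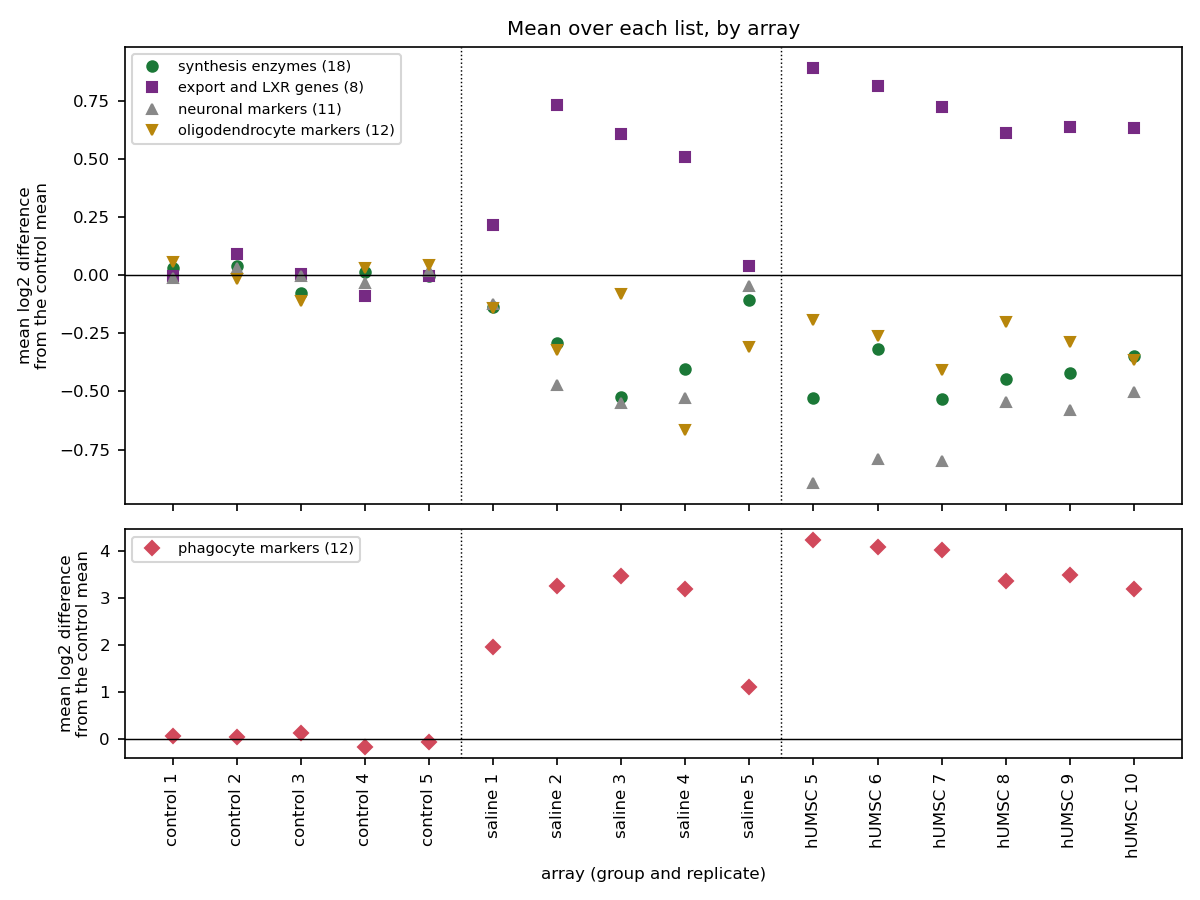
Mean log2 difference from the control mean over the 18 synthesis enzymes, 8 export genes, 11 neuronal and 12 oligodendrocyte markers (upper panel) and 12 phagocyte markers (lower panel) in each of the 16 arrays. Saline 1 and 5 lie nearest to the controls for synthesis, export, neuronal and phagocyte genes, while for oligodendrocyte markers saline 3 and 1 do.

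Other genes of the same pathways were counted from lists by function, to be read against the same shares of all genes: 14.3% higher and 13.0% lower in saline, 4.86% and 7.96% between hUMSC and saline, and 24.7% and 37.3% in hUMSC against control. Of 12 other synthesis and SREBP genes tested, 3 fell and 1 rose in saline. None was called between hUMSC and saline in limma, and 2 had an unadjusted p under 0.05, beside 7598 of all 20471 genes. In hUMSC against control 3 fell and 2 rose, both shares below those of all genes. Site proteases of SREBP were lower in 1 comparison each, with Mbtps1 at -0.14 in saline and Mbtps2 at -0.35 in hUMSC. Nfya, a subunit of NF-Y, rose by 0.56 ± 0.14 and 0.70 ± 0.14, and Sp1, a general promoter factor, rose by 0.38 ± 0.08 in hUMSC. Fatty acid synthesis genes, also SREBP targets, fell in 1 of 11 cases in saline (Fads1, -0.42), in 2 between hUMSC and saline (Elovl6, -0.63 ± 0.15, and Acaca, -0.35 ± 0.10) and in 9 in hUMSC against control. The largest falls there were Elovl6 at -0.89, Fads2 at -0.51 and Scd2 at -0.48.

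Of 11 genes of lipoprotein uptake and lysosomal handling tested, 6 rose and 2 fell in saline, 1 rose between hUMSC and saline, and 7 rose and 2 fell in hUMSC against control, where 24.7% of all genes rose and 37.3% fell. The lipoprotein receptors Vldlr and Sorl1 fell, with changes of -0.43 and -0.68 in saline and of -0.63 and -1.05 in hUMSC. The scavenger receptors Olr1 and Msr1 rose. Olr1 changed by 3.24 ± 0.40 in saline and 4.16 ± 0.39 in hUMSC, with 3 of 5 controls above background, and Msr1, well above background on none of 5 controls, 4 of 5 saline and all 6 hUMSC arrays, passed in both comparisons (adjusted p = 0.00301 and 1.50e-05). Cd36 rose by 1.92 ± 0.55 from saline to hUMSC (adjusted p = 0.0387) and by 2.89 ± 0.55 against control. Msr1 and Cd36 also stand among the phagocyte markers. Npc2, which hands cholesterol out of the lysosome, rose by 0.96 ± 0.22 in saline.

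Of 16 genes of sterol transfer and oxysterols 4 rose and 2 fell in saline, 2 rose between hUMSC and saline, and 7 rose and 7 fell in hUMSC against control. The falls in both comparisons with control were near the shares of all genes, 13.0% and 37.3%. Ch25h, which makes an oxidised cholesterol, rose by 1.12 ± 0.29 and 1.88 ± 0.27. Apoc1, an apolipoprotein gene of the same cluster as Apoe, rose in every comparison, by 0.58 ± 0.14, 0.77 ± 0.13 and 1.34 ± 0.13 (adjusted p = 0.00955, 0.00969 and 4.66e-06). Apod, another apolipoprotein gene, rose by 0.42 in saline. Hsd3b7, an enzyme of bile acid synthesis, rose by 0.49 ± 0.15 between hUMSC and saline and by 0.93 ± 0.15 against control. Osbpl1a, of the oxysterol-binding family, changed by -0.41 in saline and -0.76 in hUMSC. Rxrb, a retinoid X receptor that pairs with LXR, changed by -0.28 and -0.47, and the export pump gene Abcg4 by -0.57 in hUMSC.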

How the data were processed

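Per the file headers, the scanner files hold the processed signal as an intensity, made by the authors with Agilent Feature Extraction 11.0.1.1 (background-subtracted, not scaled between arrays); the submitters' processing notes write 100.0.1.1. The spot marks are other values per the file headers, flags for well above background and for outliers, and the deposited table of values is an intensity. Outlier spots were dropped, the rest averaged by probe as log2 signals, and each array scaled by subtracting its 75th percentile. Of the probes, 18351 matched 15442 RefSeq symbols, 12007 had none and 9 were left out. The array annotation is rn4; its positions were not used. A probe was tested if well above background on at least 5 of the 16 arrays (72.3% to 77.6% of probes per array), and the brightest probe stood for a gene. The number of arrays limits the precision.

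One limma 3.58.1 model (R 4.3.3, data.table version 1.17.8) fitted the 3 group means on all 16 arrays, with 13 residual degrees of freedom, and gave 3 two-sided comparisons, adjusted by Benjamini-Hochberg over 20471 genes, threshold 0.05. The code was tested on simulated data. Replicate numbers are those of the labels. Same-numbered control and saline arrays were not taken as pairs. Alternatives were median and quantile scaling, normexp (on the median spot signal in place of the mean that was planned), the value table, filters on dim probes, the mean of a gene's probes, slide, array weights, only 2 groups, leaving out arrays and the replicate block. Leaving out saline 1 and 5, or hUMSC 5 and 6, was chosen after seeing the data.

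The members, lists and tests were chosen with earlier results of these data known. Values per array are given for members called in at least 2 of the 3 comparisons and the 2 per role with the smallest p in hUMSC minus control, and from other lists up to 3 called genes per comparison and direction with the largest change. Promoters were read for at most 6 members. Values of some listed genes that are not members are not reported here.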

Additional observations from a re-analysis of the deposited data

Results flagged for a closer look

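A single array stood apart from the rest of its group for 9 of 90 gene and group combinations of the members, judged by its gap to the nearest other array as a share of the group's range. Chance marks about 1 in 20 such groups. In controls, replicate 3 was low for Hmgcs1 (4.82, next array 4.90), Fdps (2.36, next 2.57) and Sqle (2.36, next 2.48), and replicate 5 was low for Pmvk (1.53, next 1.61). In saline, replicate 3 was low for Tm7sf2 (-1.36, next -0.73) and replicate 2 was high for Ebp (1.59, next 1.30). In hUMSC, replicate 6 was high for Idi1 (0.73, next 0.53), and replicate 7 was low for Scap (1.30, next 1.55) and for Lcat (0.043, next 0.46).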

How the results depend on the processing

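No called member change reversed under any alternative. Of the 43 calls on members, 42 held under median scaling, 42 under quantile normalization, 41 under normexp, and all 43 with the value table, the stricter filter, the mean of a gene's probes and slide as a block. With array weights 41 held, without the dim filter 37, with only the 2 groups 35, within slide 1 23 and within slide 2 20. Of the 14 saline calls 6 held with the replicate block. In every fit without 1 array, 25 of 27 calls of hUMSC against control held. For saline against control 7 of 14 did, and for hUMSC against saline 0 of 2. Enzymes called lower in saline, 9, became 14 with median scaling, 15 with array weights, 15 without saline 1 and 5 together, 4 within slide 1, 0 within slide 2, and 6 to 14 without 1 replicate (14 without saline replicate 5). Export genes called higher in saline, 2, became 1 without the dim filter, 1 within slide 1, 0 within slide 2, 4 with array weights, 1 with only the 2 groups, 4 without saline 1 and 5, and 1 to 3 without 1 replicate. Enzymes called lower in hUMSC against control, 16, became 8 within slide 1. Export genes called higher against saline, 2, became 1 with quantile normalization, 1 without the dim filter, and 0 within slide 1, within slide 2, with array weights, with only the 2 groups, without saline 1 and 5 and without hUMSC 5 and 6, and were 0 to 3 without 1 replicate. Enzymes called lower against saline, 0, were 0 to 4 without 1 replicate (4 without saline replicate 3). Over all genes, hUMSC minus saline gave 994 rises and 1630 falls, but 8 and 33 with only the 2 groups, 20 and 102 with array weights, 428 and 935 without the dim filter, 327 and 712 within slide 1, 0 and 0 within slide 2 (3186 at an unadjusted p under 0.05), 5 and 18 without saline 1 and 5, 15 and 126 without hUMSC 5 and 6, and 2667 and 3723 with slide as a block. Without 1 replicate they were 26 to 1796 and 157 to 2488, lowest without saline replicate 1, then saline 5 (61 and 312) and hUMSC 5, 6 and 7 (106 and 480, 148 and 553, 176 and 579). Saline minus control gave 2924 and 2657, but 2377 and 4888 with median scaling, 4114 and 5133 with array weights, 4049 and 4992 without saline 1 and 5, 2079 and 973 within slide 1, 0 and 1 within slide 2, and 2050 to 3614 and 1154 to 3990 without 1 replicate, with fewest falls without saline replicate 2 (1154), 3 (1259) or 4 (1283). Calls of hUMSC minus control, 5057 and 7643, became 3030 and 3154 within slide 2. The cause was not tested, beside the fewer arrays within a slide.

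With the replicate block, the replicate number as a block over control and saline arrays 1 to 5, 5 enzymes fell and 1 export gene rose in saline, and 2151 genes rose and 1058 fell. Arrays of the same number correlated at -0.05, 0.18, 0.01, 0.12 and 0.17 in their deviations, and 2 of 5 correlated best with their own number, so the numbers were not taken as pairs.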
